A study of Mus musculus and Rattus norvegicus with 37 samples.

Results

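The genes described here are lipoprotein lipase (Lpl), 3 related lipases (Lipc, Lipg and Lipa), and 5 other genes (Lmf1, Gpihbp1, Apoc2, Apoc3 and Apoa5). The proteins of these 5 help lipases to fold or reach the vessel wall, or promote or oppose their action. The 9 genes were chosen by name as a family and not by a rule on their measured values. However, earlier results of these data were known. Among those results, the study had reported Lpl as raised by LNA29. Each gene was taken as the entry with exactly that gene name. All 9 were listed in both mouse tables, among 47929 entries with a unique name, and in both rat tables, among 28026.

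RNA-seq was performed on 37 livers, 21 from mice and 16 from rats. The mice were C57BL/6J females. The WT/Floxed group pooled unmodified mice with mice that carried floxed Sirt1 but no deletion, and the other group was labelled as knockout for Sirt1 and is described in the study as liver-specific (L-Sirt1 KO). The study's methods give the floxed and L-Sirt1 KO mice as 15 to 20 weeks old and C57BL/6J mice of its other experiments as 9 to 11 weeks old, and the age of the unmodified mice within the pooled group and the Cre driver were not given in the sources used here. LNA29 is a pair of locked nucleic acid inhibitors, 1 against miR-29a and 1 against miR-29b and miR-29c, given together by a single subcutaneous injection at 20 mg/kg each at Zeitgeber time 3. Livers were collected at day 7, and the controls received saline, so that no control oligonucleotide entered these comparisons. There were 8 LNA29 mice (4 WT and 4 floxed) and 5 saline mice (3 WT and 2 floxed) in the WT/Floxed group, and 4 of each among L-Sirt1 KO mice.

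The rats were male Zucker rats, 4 in each group. Zucker fatty rats (ZFR) carry a mutation of the leptin receptor gene and are obese, and Zucker lean rats (ZLR) are their lean controls; both were 5.5 months old, and the labels give no treatment for them. A separate set of ZFR, 3 months old, received BT2 at 20 mg/kg or its vehicle by intraperitoneal injection daily for 1 week. BT2 inhibits the kinase that switches off branched-chain ketoacid dehydrogenase.

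Lipoprotein lipase hydrolyses the triglycerides of chylomicrons and very-low-density lipoproteins at the surface of capillaries, and is known above all from adipose tissue, heart and skeletal muscle; the adult liver normally makes little of it. It is folded in the endoplasmic reticulum with the help of LMF1, is carried across and held on the endothelium by GPIHBP1, requires APOC2 as its activator, and is opposed by APOC3, while APOA5 promotes its action. Hepatocytes secrete the 3 apolipoproteins and hepatic lipase (Lipc), and LIPA works inside the lysosome.

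The miR-29 family is shown first because LNA29 was directed against it and because its members share 1 seed, the bases that pair with a target. The mature mouse sequences, from RefSeq for GRCm38.p6, are given 5′ to 3′ with the seed, bases 2 to 8, in capitals.
mmu-miR-29a-3p: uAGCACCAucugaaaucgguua
mmu-miR-29b-3p: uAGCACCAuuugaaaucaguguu
mmu-miR-29c-3p: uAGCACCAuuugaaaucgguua

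The longest annotated 3′ UTR of each gene (GENCODE vM21) was searched on the sense strand for the 8-letter match to this seed followed by A, TGGTGCTA, and for the 7-letter matches TGGTGCT and GGTGCTA, each of which lies within the 8-letter match. Of the 9 genes, Lpl alone held the 8-letter match and Apoa5 alone held a 7-letter match without it. The Lpl match lay at chr8:68906770-68906777 on the plus strand, in exon 10 of 10, starting at base 2264 of a 2428-base 3′ UTR. Apoa5 held TGGTGCT at chr9:46271050-46271056 and at chr9:46271675-46271681 on the plus strand, both in exon 4 of 4, and the 30 bases around these matches were identical. The windows from mm10 are printed with the match in capitals, because they are where the inhibited miRNA could pair with these transcripts.
Lpl, chr8:68906759-68906788: gtatagatttgTGGTGCTAactttgtgtcc
Apoa5, chr9:46271039-46271068: ttctcgcagccTGGTGCTggctgttacagt

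The 8-letter match was present in 3.32% of 13612 genes with an annotated 3′ UTR, and any of the 3 matches in 18.8%. Among the 3726 genes whose 3′ UTR was within 1.5 times the length of that of Lpl these shares were 4.75% and 28.7%. A match is a description of the letters and does not show that a site is used.

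Lpl (ENSMUSG00000015568.16) spans chr8:68880491-68907448 on the plus strand. The apolipoprotein genes Apoa5 (chr9:46268633-46271919, plus strand) and Apoc3 (chr9:46232933-46235636, minus strand) are near neighbours. Apoc2 (chr7:19671579-19677941, minus strand) overlaps the predicted gene Gm44805 over 6358 bases on the same strand, and Apoa5 overlaps the antisense gene Gm47544 over 1331 bases. The sources used here do not say whether reads were counted by strand.

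Estimated depth was 42600000 to 78000000 reads in the mouse libraries and 188000 to 58500000 in the rat libraries, of which 6 of 16 had fewer than 1000000. Hepatocyte markers were abundant in every library, with summed normalized counts of 5159317 to 9045102 in mice. Sirt1 lay between 535 and 617 normalized counts in the libraries labelled L-Sirt1 KO and between 493 and 699 in the WT/Floxed libraries, in tables normalized separately, so that the gene total was not lower in the former. A total over the whole gene does not show whether part of it was deleted. The study measured hepatic Sirt1 in both genotypes by RT-qPCR as well, which is not part of the data used here. Known miR-29 targets rose with LNA29: of 10 collagen, elastin and matrix genes 9 rose in WT/Floxed mice (median log2 difference of the 10, 0.80) and 10 in L-Sirt1 KO mice (0.93), with Eln, which encodes elastin, at 1.85 (adjusted p = 4.66e-05) and 1.73, Col3a1 at 1.19 and 1.74 (adjusted p = 0.00783), and Col1a1 at 0.87 and 1.71 on the log2 scale.

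Values below are the authors' normalized counts for each gene. Differences are on the log2(normalized count + 1) scale with the standard error (SE) of limma's fit, and adjusted p-values are Benjamini-Hochberg values over all genes tested. In mice a gene was called changed at p below 0.05, adjusted p below 0.2, mean above 50 and fold above 1.2, which are the limits of the study, and in rats at adjusted p below 0.05. In WT/Floxed mice 1 of the 9 genes was called higher and 0 lower with LNA29, where 2.42% of the 15811 genes tested were called higher and 1.93% lower. In L-Sirt1 KO mice 0 were called higher and 2 lower, where 1.19% of 15885 genes were called higher and 0.68% lower. The median log2 difference of the 9 genes was −0.02 in WT/Floxed and −0.11 in L-Sirt1 KO mice, and that of all genes was 0.00 in both.

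Lpl was the gene that rose in WT/Floxed mice. With saline it stood at 1156, 1733, 1268, 1764 and 1318 normalized counts in replicates 1 to 5, and with LNA29 it ranged from 1788 to 3655 with a median of 2468. The groups did not overlap, although the lowest LNA29 library (replicate 3) lay just above the highest saline library (replicate 4). The log2 difference was 0.80 (SE 0.17, 95% interval 0.44 to 1.16, adjusted p = 0.0314), and the exact two-sided permutation test gave p = 0.00155. Among all genes tested, 1.51% had groups that did not overlap in this comparison.

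The Lpl mean was higher with LNA29 in the unmodified and in the floxed mice of the pooled group. In WT mice the means were 2694 ± 717 (SD, n = 4) with LNA29 and 1396 ± 324 (n = 3) with saline, a fold of 1.93 (exact permutation p = 0.0571). In floxed mice they were 2402 ± 630 (n = 4) and 1526 ± 294 (n = 2), a fold of 1.57 (exact permutation p = 0.133). Within each of the 3 flow cells the LNA29 mean was above the saline mean, by 1.43-, 2.16- and 1.94-fold. With genetic background or flow cell as a covariate the log2 difference was 0.80 (adjusted p = 0.0283) and 0.81 (adjusted p = 0.0363). Neither genetic background taken alone gave a call, with adjusted p = 0.250 in WT and 0.248 in floxed mice, where fewer libraries entered each fit.

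In L-Sirt1 KO mice Lpl was at 1961, 1585, 1487 and 1408 normalized counts with saline and at 4301, 2261, 2009 and 2142 with LNA29. All 4 LNA29 libraries lay above all saline libraries, and LNA29 replicate 1 stood far above the rest. The log2 difference was 0.67 (SE 0.23, 95% interval 0.16 to 1.18) and was not called in this limma fit (adjusted p = 0.304). The study, which applied the same limits to DESeq2 tests, lists Lpl among the genes raised by LNA29 in both genotypes. The exact permutation p of 0.0286 is the smallest that 4 against 4 libraries allow, and 6.95% of all genes had groups that did not overlap here. Without LNA29 replicate 1 the log2 difference was 0.42 (adjusted p = 0.257).

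**Figure D1:**
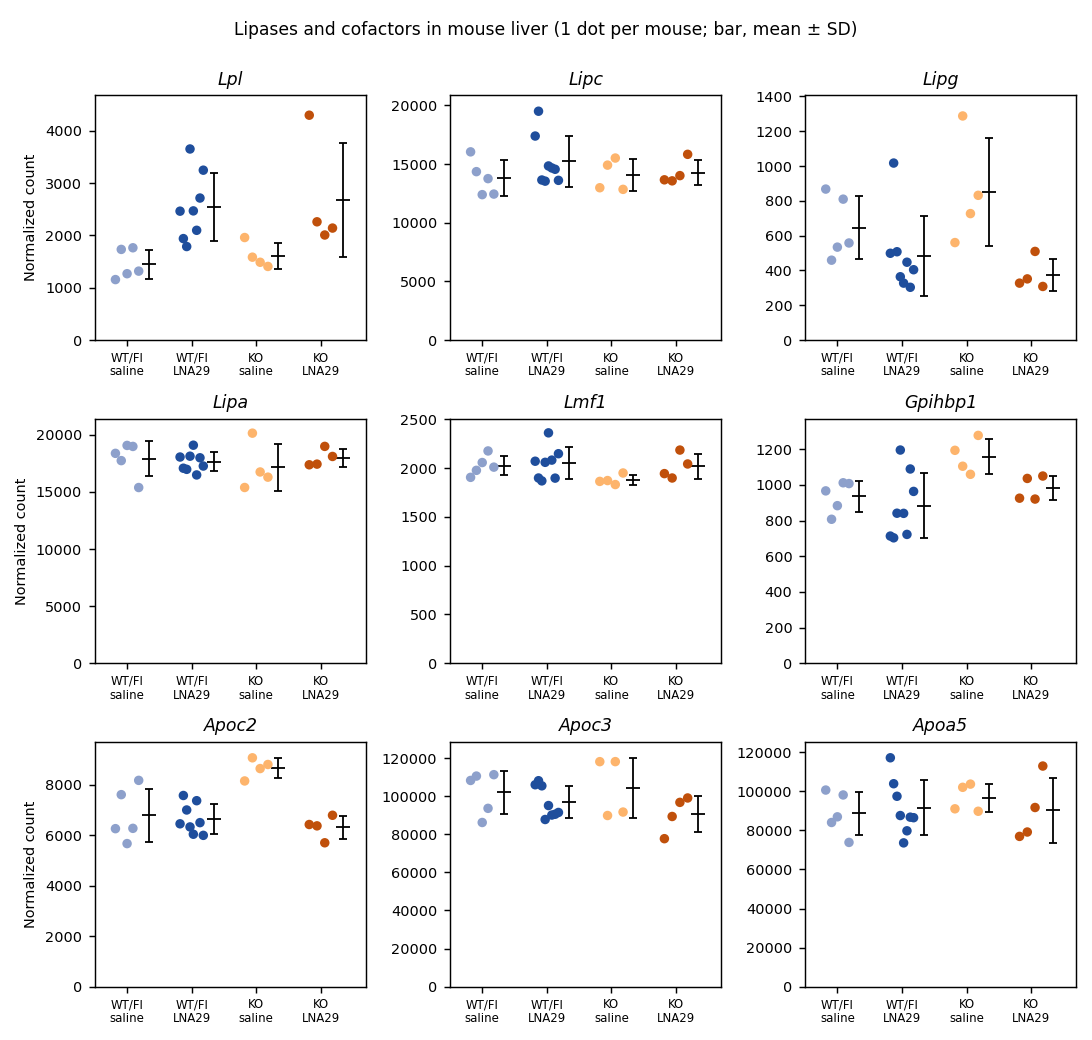
Normalized counts of the 9 genes in each mouse library. Each point is 1 library, the horizontal line is the group mean, bars are SD, and each panel has its own linear axis starting at 0. Lpl is higher with LNA29 in both genotypes, and Apoc2 is lower with LNA29 in L-Sirt1 KO mice, while most other groups overlap.

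The library with the most Lpl in each mouse table also stood apart in markers of other cell types, whose part in the Lpl values was not tested. WT/Floxed LNA29 replicate 4, with 3655 normalized counts of Lpl, had the highest summed macrophage markers of any mouse library, 40601, and the summed markers ranged from 7343 to 40601 with LNA29 and from 13479 to 23653 with saline. L-Sirt1 KO LNA29 replicate 1, with 4301, had summed skeletal muscle markers of 2480, where the other L-Sirt1 KO libraries had 1.78 to 30.1, and summed adipocyte markers of 519, with Adipoq at 36.0 and Ckm at 561. L-Sirt1 KO saline replicate 4 had the most adipocyte RNA, 1590, with Adipoq at 150, and the lowest Lpl of its table.

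In the WT/Floxed comparison the LNA29 and saline means of summed macrophage markers were 16663 and 19214, of which the first included the library at 40601; 0 of the 8 macrophage markers were called. Summed adipocyte markers were 130 to 335 with LNA29 and 184 to 215 with saline (0 of 3 tested called), and summed endothelial markers 9902 to 16619 and 12031 to 16082 (1 of 8 called, Lyve1, by −0.51 on the log2 scale, adjusted p = 0.165). With the 2 libraries that had the most adipocyte and muscle RNA left out of each comparison, an alternative chosen after the data were seen, Lpl in WT/Floxed mice had a log2 difference of 0.78 (adjusted p = 0.0251) and Lpl in L-Sirt1 KO mice one of 0.36 (adjusted p = 0.432). In bulk liver, fewer cells of a type and less RNA per cell cannot be told apart.

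**Figure D2:**
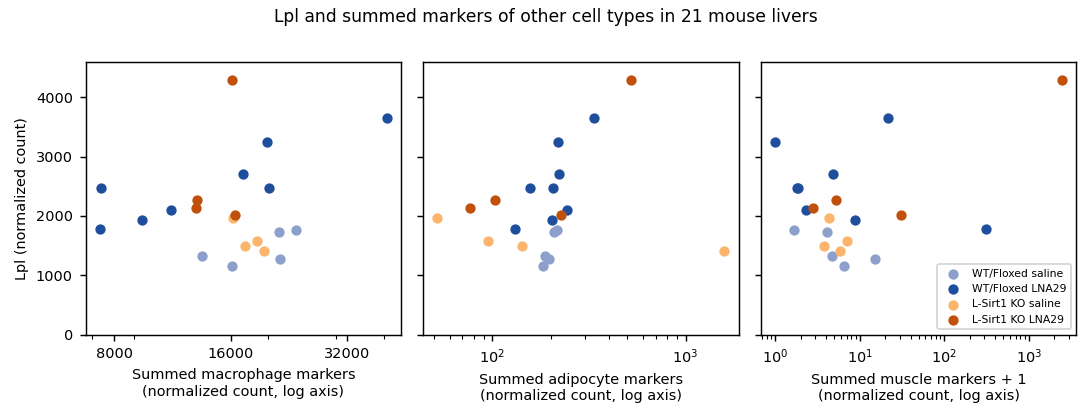
Lpl (normalized count) in the 21 mouse libraries against summed markers of macrophages, adipocytes and skeletal muscle, on log horizontal axes, with 1 added to the muscle sums. The 2 libraries with the most Lpl are WT/Floxed LNA29 replicate 4, at the far right for macrophages, and L-Sirt1 KO LNA29 replicate 1, at the far right for muscle.

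Lipg encodes endothelial lipase, which acts mainly on the phospholipids of high-density lipoproteins. It fell in L-Sirt1 KO mice and did not pass the test in WT/Floxed mice. With saline the L-Sirt1 KO livers held 560, 1288, 727 and 832 normalized counts, and with LNA29 they held 327, 351, 509 and 308. The groups did not overlap, and saline replicate 2 was the highest. The means were 852 ± 312 and 374 ± 92.0 (SD, n = 4 each), a log2 difference of −1.15 (SE 0.25, 95% interval −1.71 to −0.59, adjusted p = 0.127). The call rested on single libraries: it was lost without LNA29 replicate 2 (adjusted p = 0.2995), LNA29 replicate 4 (0.308) or saline replicate 4 (0.250), and it was also lost without the adipocyte- and muscle-rich libraries (−1.08, adjusted p = 0.324).

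In WT/Floxed mice Lipg was at 868, 459, 534, 810 and 558 normalized counts with saline, and at 303 to 1017 with a median of 426 with LNA29. The highest LNA29 library, replicate 2, lay above every saline library, and the other 7 lay between 303 and 507. The log2 difference was −0.48 (SE 0.25, 95% interval −1.01 to 0.06, adjusted p = 0.457), and without LNA29 replicate 2 it was −0.64 and was called (adjusted p = 0.1195).

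Lipc, hepatic lipase, which acts on remnants and high-density lipoproteins, was not called in either genotype. With LNA29 it ranged from 13546 to 19511 normalized counts with a median of 14616 in WT/Floxed mice, against 16046, 14358, 12397, 13763 and 12445 with saline, and the ranges overlapped. The log2 difference was 0.14 (95% interval −0.07 to 0.35) in WT/Floxed and 0.02 (−0.18 to 0.23) in L-Sirt1 KO mice. Lipa, the lysosomal acid lipase, varied little between libraries, from 15390 to 19098 normalized counts in WT/Floxed and from 15394 to 20153 in L-Sirt1 KO mice. Its log2 differences were −0.02 (−0.16 to 0.12) and 0.07 (−0.14 to 0.29), neither called.

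Lmf1, which encodes the endoplasmic reticulum factor for folding LPL, LIPC and LIPG, did not pass the test in either genotype. It lay between 1868 and 2360 normalized counts in the 13 WT/Floxed libraries and between 1831 and 2184 in the 8 L-Sirt1 KO libraries. The log2 differences were 0.01 (95% interval −0.13 to 0.16) and 0.10 (−0.07 to 0.28).

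Gpihbp1, the endothelial anchor of LPL, was at 1194, 1105, 1059 and 1278 normalized counts with saline and at 926, 1036, 921 and 1050 with LNA29 in L-Sirt1 KO mice. The groups did not overlap, by a narrow margin between LNA29 replicate 4 and saline replicate 3. The log2 difference of −0.24 (SE 0.10, 95% interval −0.45 to −0.02) was not called (adjusted p = 0.400). In WT/Floxed mice the groups overlapped, with 703 to 1196 normalized counts with LNA29 and 807 to 1012 with saline, and the log2 difference was −0.10 (−0.39 to 0.18). Of 8 endothelial markers 1 was called in L-Sirt1 KO mice, Lyve1, which fell by 1.17 on the log2 scale (adjusted p = 0.115). The median log2 difference of the 8 was −0.01, and their sums overlapped, at 13219 to 14420 with LNA29 and 13285 to 14648 with saline. Whether endothelial content had a part in the Gpihbp1 values was not tested.

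Apoc2, the activator of LPL, fell in L-Sirt1 KO mice. It was at 8145, 9062, 8636 and 8798 normalized counts with saline and at 6420, 6366, 5696 and 6786 with LNA29. The highest LNA29 library (replicate 4) lay well under the lowest saline library (replicate 1). The means were 8660 ± 386 and 6317 ± 454 (SD, n = 4 each), and the log2 difference was −0.46 (SE 0.08, 95% interval −0.64 to −0.28, adjusted p = 0.0603). It was called without any single library (−0.49 to −0.41) but not without the libraries richest in adipocyte and muscle RNA, where the difference was −0.46 and the adjusted p 0.236. Counts of the overlapping Gm44805 amounted to 2.36 to 9.19% of those of Apoc2 over the mouse libraries, and with them added the L-Sirt1 KO difference was −0.46 (adjusted p = 0.0596).

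In WT/Floxed mice Apoc2 was at 6255, 7603, 5664, 6268 and 8169 normalized counts with saline and at 5990 to 7569, with a median of 6471, with LNA29. The LNA29 range lay within the saline range, and the log2 difference was −0.02 (SE 0.09, 95% interval −0.22 to 0.18). The unmodified and floxed mice of this group moved in opposite directions. In WT mice Apoc2 was at 6324 to 7569 with LNA29 and at 5664 to 6268 with saline (log2 difference 0.14, adjusted p = 0.682), and in floxed mice at 5990 to 7363 with LNA29 and at 7603 and 8169 with saline (−0.26, adjusted p = 0.324). The ranges did not overlap in either, and neither difference was called. The difference of these responses, floxed minus WT, was −0.41 (SE 0.14, 95% interval −0.71 to −0.10), not called in a limma fit added after the data were seen (adjusted p = 0.525), which called 0.00632% of 15811 genes. The only other groups that did not overlap within 1 genetic background were those of Lpl in both, Lipa in WT mice (lower with LNA29) and Apoc3 in floxed mice (lower with LNA29). For Lpl the exact permutation test of such separated groups gave p = 0.0571 in WT and 0.133 in floxed mice. The share of all genes without overlap within each background was not determined, so these separations are descriptions.

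Apoc3 and Apoa5, an inhibitor and a promoter of triglyceride clearance, were the most abundant transcripts of the set and were called in neither genotype. In WT/Floxed mice Apoc3 was at 87852 to 108251 normalized counts with LNA29 and at 86280 to 111428 with saline, a log2 difference of −0.07 (95% interval −0.26 to 0.11). In L-Sirt1 KO mice it was at 77766, 89434, 96861 and 99173 with LNA29 and at 118273, 89951, 118290 and 91767 with saline, a log2 difference of −0.20 (−0.48 to 0.09) with overlapping groups. Apoa5, which holds the repeated 7-letter match shown above, was at 73636 to 117259 normalized counts with LNA29 and 73877 to 100717 with saline in WT/Floxed mice, a log2 difference of 0.04 (−0.20 to 0.28). Its log2 difference in L-Sirt1 KO mice was −0.11 (−0.40 to 0.18).

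The response of each gene to LNA29 was then compared between genotypes as an interaction, the log2 difference in L-Sirt1 KO mice minus that in WT/Floxed mice, across 15601 genes tested in both tables. None of the 9 genes was called at adjusted p below 0.2, where 0.0449% of all genes were; limma gave 1426 genes of all those tested an unadjusted p below 0.05, among which Apoc2 was the only one of the 9. For Apoc2 the difference of responses was −0.44 (SE 0.13, 95% interval −0.71 to −0.16, adjusted p = 0.326). For Lpl it was −0.13 (−0.74 to 0.49, adjusted p = 0.934) and for Lipg −0.67 (−1.495 to 0.15, adjusted p = 0.632). A call in 1 genotype alone is therefore not shown here to differ between genotypes.

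**Figure D3:**
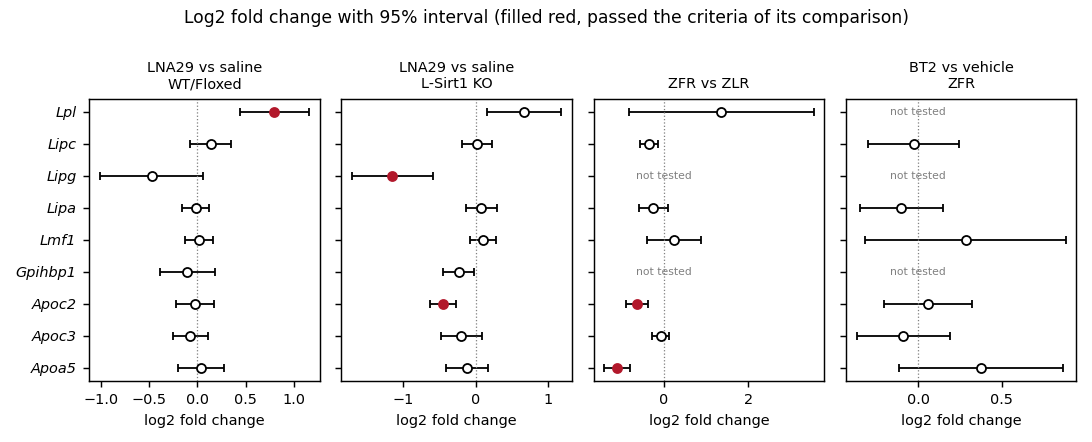
Log2 differences of the 9 genes in each comparison, on the log2(normalized count + 1) scale, with 95% intervals from limma; filled points passed the call rule and the panels have different horizontal ranges. Lpl lies to the right in both mouse comparisons and Apoc2 to the left in L-Sirt1 KO mice and in ZFR, where Apoa5 lies furthest to the left.

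Seed matches were counted among the genes called higher. Of 447 tested genes with it, 64 (14.3%) were called higher with LNA29 in WT/Floxed mice, against 102 (4.89%) of 2087 with a 7-letter match alone and 190 (1.74%) of 10918 with none. The L-Sirt1 KO shares were 42 of 449 (9.35%), 56 of 2091 (2.68%) and 78 of 10969 (0.711%). These shares are given as counts without a test, and Lpl is 1 of the 64 genes in WT/Floxed mice.

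Per kilobase of transcript, a scale on which genes can be set beside each other, the WT/Floxed saline levels ran in the order Apoc3 (144008 ± 16095 normalized counts per kilobase, SD, n = 5), Apoa5 (35298 ± 4349), Apoc2 (9342 ± 1441), Lipc (7188 ± 788), Lipa (6035 ± 509), Lmf1 (1011 ± 50.3), Gpihbp1 (566 ± 53.4), Lpl (352 ± 68.3) and Lipg (170 ± 47.8). Apoc2 and Lipc overlapped over the 5 libraries and the other neighbours in this order did not. With LNA29 the mean level of Lpl, 619 in WT/Floxed and 651 in L-Sirt1 KO mice, stood above that of Gpihbp1, 535 and 595, with overlapping ranges. Transcript lengths were those of GENCODE vM21 and the authors' annotation was not given, so these levels are approximate.

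**Figure D4:**
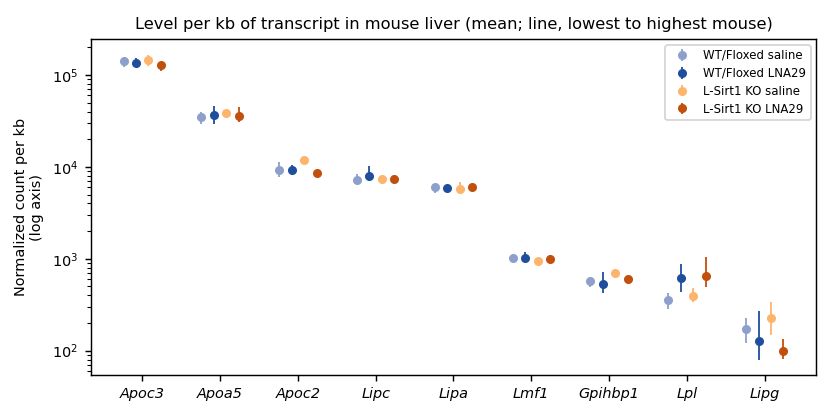
Level of each gene in mouse liver as normalized counts per kilobase of transcript (log axis). Points are group means and vertical lines run from the lowest to the highest mouse; Apoc3 and Apoa5 lie at the top and Lipg at the bottom in all 4 groups.

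The genes whose deviations from their group means were most like those of Lpl over the 21 mouse libraries, among 12759 genes whose mean exceeded 50 in each mouse table, were Slc25a4 (Pearson r = 0.82), Mecom (0.78), Cd48 (0.76), Ap1s2 (0.75) and Gemin4 (0.74). Slc25a4 encodes an ADP/ATP carrier abundant in muscle, and Cd48 is a surface protein of leukocytes. Without the 2 libraries highest in Lpl, WT/Floxed LNA29 replicate 4 and L-Sirt1 KO LNA29 replicate 1, these values were 0.71, 0.63, 0.72, 0.51 and 0.52. None of the 5 was called in either mouse comparison. Between the 9 genes themselves the highest correlations were 0.67 for Apoa5 with Lipc and 0.58 for Lipc with Lipg, and the lowest was −0.53 for Gpihbp1 with Lipc; Lpl had 0.36 with Gpihbp1 and −0.45 with Lipg. All these libraries share the normalization of their table, and the values are descriptions.

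Of 12 other proteins that bind, inhibit, process or help fold the lipases, or travel on the same particles, 0 were called in either mouse comparison (median log2 differences −0.06 and −0.15). The ANGPTL inhibitors of lipoprotein lipase, which are named although they passed no test, varied widely between livers. Angptl4 had 8772 ± 3578 normalized counts with LNA29 (SD, n = 8) and 6833 ± 5537 with saline (n = 5) in WT/Floxed mice, and Angptl8 had 2275 ± 1257 and 5130 ± 3019 (n = 4 each) in L-Sirt1 KO mice (log2 difference −1.11, adjusted p = 0.465). Among genes of remnant uptake, Sdc1, a proteoglycan receptor for remnants, had a log2 difference of −0.35 in WT/Floxed mice (adjusted p = 0.1499); 0 genes of this list were called without any 1 of 6 libraries (saline replicates 3, 4 and 5, LNA29 replicates 5, 6 and 8) and 3 in floxed mice taken alone. Of 12 lysosomal genes that work beside LIPA, Tfeb, a transcription factor for lysosomal genes, rose by 0.48 in WT/Floxed mice (adjusted p = 0.192) and 0 were called in L-Sirt1 KO mice. The call was lost when any 1 of 11 of the 13 libraries was left out, all but LNA29 replicate 4 and saline replicate 5, and with flow cell as a covariate. None of 10 transcription factors known to act on these genes, among them Ppara, Nr1h3 and Foxo1, was called in either genotype.

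In the rats the depth of each library sets what can be read. Between ZFR and ZLR 7 of the 9 genes could be tested and 2 were called, both lower in ZFR, where 2.46% of the 8633 genes tested were called lower and 1.8% higher. The median log2 difference of the 7 was −0.24, against 0.07 for all genes. The groups of 3 of the 7 did not overlap, and neither did those of 14.5% of all genes.

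Apoa5 was lower in ZFR. It was at 2932, 2813, 3740 and 3446 normalized counts in ZLR and at 1633, 1458, 1208 and 1705 in ZFR. The highest ZFR library (replicate 4) lay well under the lowest ZLR library (replicate 2). The means were 3233 ± 436 and 1501 ± 221 (SD, n = 4 each), and the log2 difference was −1.11 (SE 0.13, 95% interval −1.41 to −0.81, adjusted p = 0.00179). Among libraries of at least 1000000 reads (ZLR replicates 1 and 2, ZFR replicates 1, 2 and 4) it was −0.85 (adjusted p = 0.0129). Those ZLR libraries shared a flow cell. With the 2 flow cells as a covariate the difference was −1.11 (adjusted p = 0.00394).

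Apoc2 was also lower in ZFR, at 1417, 1488, 1464 and 1537 normalized counts against 2675, 2180, 2486 and 1848 in ZLR. The ZFR libraries lay within a narrow range under all ZLR libraries, which were more spread. The log2 difference was −0.62 (SE 0.12, 95% interval −0.88 to −0.36, adjusted p = 0.0155). It missed the limit without ZFR replicate 1 (adjusted p = 0.0515) or ZFR replicate 3 (0.0528). Lipc was at 816, 985, 788 and 846 normalized counts in ZLR and 704, 677, 612 and 697 in ZFR, without overlap, and its log2 difference of −0.35 (SE 0.10, 95% interval −0.57 to −0.13) was not called (adjusted p = 0.0938).

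Apoc3, Lipa and Lmf1 overlapped between ZFR and ZLR, with log2 differences of −0.07 (adjusted p = 0.706), −0.24 (0.457) and 0.25 (0.680). Lmf1 was at 49.5, 43.5, 31.6 and 20.9 normalized counts in ZLR, of which the last 2 libraries held 188000 and 189000 reads, so that 1 read was worth 10.5 and 10.4 normalized counts there. Of 7 hepatocyte markers tested 4 were called lower in ZFR, of which Cps1, the first enzyme of the urea cycle, differed most (−0.58, adjusted p = 0.0483). The summed hepatocyte markers overlapped, at 184056.4 to 275051.8 in ZFR and 233676.5 to 301434 in ZLR. Of 6 endothelial markers tested 1 was called, Stab2, which was higher (1.16, adjusted p = 0.0330). The median log2 difference of these 6 was 0.05, and the summed endothelial markers overlapped, at 431 to 590 in ZFR and 459 to 551 in ZLR. The part of these markers in the apolipoprotein values was not tested.

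Lpl was scarce in rat liver. It was at 26.3, 7.17, 10.5 and 0 normalized counts in ZLR and at 7.59, 43.5, 16.7 and 15.6 in ZFR, where the 10.5 of ZLR replicate 3 was 1 read. The groups overlapped, and the log2 difference of 1.36 (SE 0.98, 95% interval −0.82 to 3.55, adjusted p = 0.515) leaves a change of either direction possible. The 2 libraries with the most Lpl, ZFR replicate 2 and ZLR replicate 1, had the highest summed muscle markers of this table, 439 and 231. Lpl in the rat groups averaged 1.90 to 11.1 CPM (normalized counts scaled to a total of 1000000 per library), where the mouse groups, in other tables, had 24.0 to 45.8 CPM.

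Lipg and Gpihbp1 were near the floor in rats and were not tested. The most Lipg reads in any rat library were 6 (0.193 normalized counts, ZFR replicate 1), and the most Gpihbp1 reads were 20 (0.766, ZLR replicate 1). The highest normalized count of either gene was 1.56 in ZFR replicate 4, where it was 1 read. The limit that a count of 0 allows, 3 reads, was 0.115 normalized counts in ZLR replicate 1 and 31.6 in ZLR replicate 3, so that levels could not be compared at these depths. Such limits cover counting error only.

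**Figure D5:**
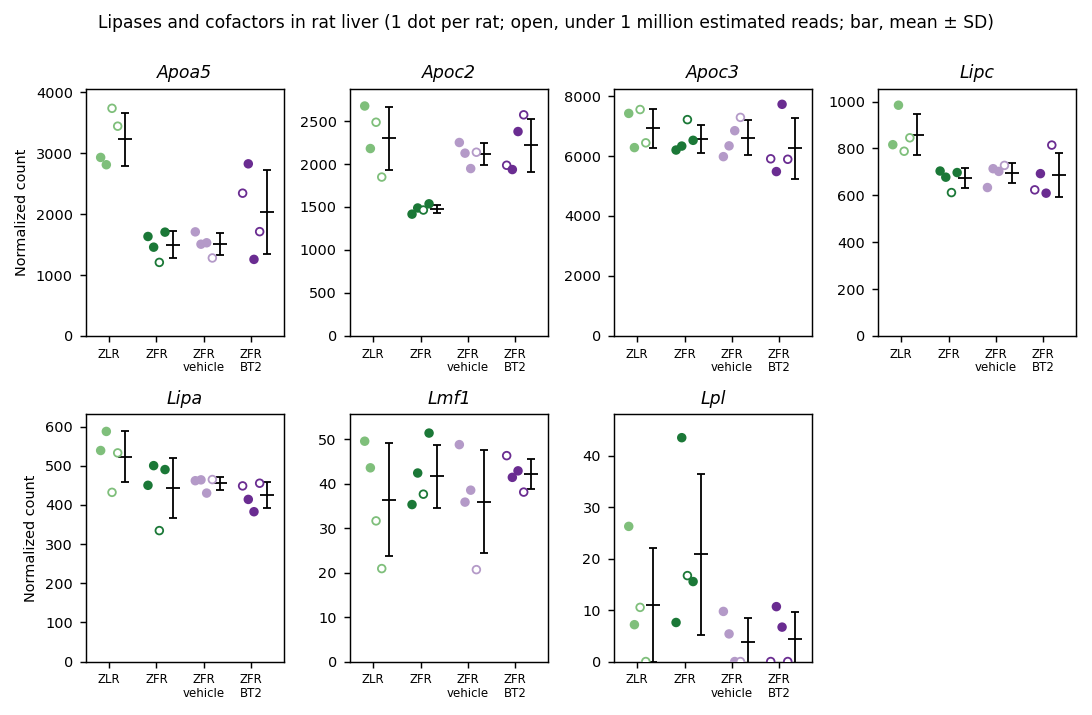
Normalized counts of 7 of the 9 genes in each rat library; each point is 1 library (open, fewer than 1000000 reads), lines are group means and bars SD, cut at 0 where they would go below it, and each panel has its own linear axis from 0. ZFR and ZLR come from 1 table and vehicle and BT2 from another; Apoa5 and Apoc2 are lower in ZFR than in ZLR.

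In lists of related genes, 2 of 11 partners and inhibitors of the lipases were called between ZFR and ZLR: Apoe, the ligand of remnant receptors, fell by 0.45 on the log2 scale (SE 0.10, adjusted p = 0.0391), and Apoa4, an apolipoprotein of triglyceride-rich particles, rose by 0.75 (SE 0.16, adjusted p = 0.0317). The number called in this list was 0 without ZLR replicate 2 or any 1 ZFR library, 1 without ZLR replicate 1 or 4, 0 with TMM scaling, with flow cell as a covariate or with no minimum mean, and 5 with sample weights. Of 9 remnant uptake genes 2 rose, led by Cd36, a fatty acid transporter, at 1.71 (adjusted p = 0.00254). None of 12 lysosomal genes or 8 transcription factors was called. Of 9 miR-29 target genes 4 were higher in ZFR, led by Col1a1 (4.16, adjusted p = 0.0223). By RT-qPCR, which is not part of the data used here, the study reported higher hepatic miR-29 in ZFR than in ZLR. Col1a1 was at 8.05, 5.74, 0 and 0 normalized counts in ZLR and at 26.6, 74.1, 37.6 and 76.2 in ZFR. In ZLR replicates 3 and 4, both at 0, 1 read was worth 10.5 and 10.4 normalized counts, so the size of this difference is uncertain.

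None of the 6 genes that could be tested in BT2-treated ZFR was called. With limma 0% of the 8405 genes tested were called in either direction, 0 genes higher and 0 lower, while 332 had an unadjusted p below 0.05. None of the 6 had groups without overlap, against 2.96% of all genes, and the median log2 difference of the 6 was 0.02, against 0.01 for all genes.

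Apoa5 had the largest difference of the 6. It was at 1709, 1507, 1530 and 1280 normalized counts with vehicle and at 2345, 2827, 1257 and 1713 with BT2. BT2 replicates 1, 2 and 4 lay above all vehicle libraries, the last by a narrow margin, and BT2 replicate 3 lay below them. The log2 difference was 0.38 (SE 0.22, 95% interval −0.11 to 0.86, adjusted p = 0.898).

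For Apoc2 the vehicle libraries held 2250, 2126, 1947 and 2137 normalized counts and the BT2 libraries 1986, 1936, 2378 and 2572, a log2 difference of 0.06 (−0.20 to 0.32). Those of Lipc, Lipa, Lmf1 and Apoc3 were −0.03 (−0.30 to 0.25), −0.10 (−0.35 to 0.15), 0.28 (−0.32 to 0.88) and −0.09 (−0.37 to 0.19), with adjusted p from 0.898 to 0.979. A change of the size of the ZFR difference in Apoc2, 0.62, lay outside the interval for Apoc2. Lpl was at 9.75, 5.37, 0 and 0 normalized counts with vehicle and 0, 10.7, 6.69 and 0 with BT2, in no library more than 24 reads. Of the related genes, 0 of 10 partners and inhibitors, 0 of 9 remnant uptake genes, 0 of 12 lysosomal genes, 0 of 8 transcription factors and 0 of 8 miR-29 targets were called.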

How the data were processed

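Liver polyA RNA was sequenced as 100-base single reads. Per the labels and the study's methods, the authors aligned reads with STAR to mm10 or rn6, estimated gene counts with Salmon, and deposited 4 tables of signal values, gene counts divided by DESeq2 size factors; the authors left out 1 saline floxed mouse. The 9 genes and all gene lists were chosen with earlier results of these data known. Entries without a unique name were dropped, which in rats removed up to 2.17% of counts. Each table was tested on its own with limma 3.58.1 (R 4.3.3, trended variance) on log2(value + 1), for genes with a mean of at least 10; genotypes were compared in a joint fit of both mouse tables, which were normalized separately. All 9 genes were named in every comparison. From the lists, every called gene among partners and inhibitors, and otherwise the called gene with the largest difference per comparison, were named where reported. The lists of hepatocyte, macrophage, endothelial, stellate, adipocyte, muscle, pancreatic acinar and red blood cell markers were summed per library. Depth was read from the step of the lowest values: in mice 75.9 to 80.9% and in rats 83.4 to 92.3% of low values were whole reads within 0.1, which did not suffice for a test on counts. Replicates are separate animals. Alternatives were another pseudocount, no minimum mean, TMM scaling, sample weights, flow cell, genetic background or replicate number as covariates, subsets of libraries and each library left out. The fit was tested on simulated data. Some results on remnant uptake are not reported here.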

Additional observations from a re-analysis of the deposited data

Results flagged for a closer look

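In groups of 4 to 10 libraries, 7 of 69 gene and group combinations had 1 library far from the rest by Dixon's criterion. Combinations whose values were all equal were left out. For normally distributed values chance alone flags about 5%. That rate does not hold for counts near 0, where a single nonzero library among zeros is always flagged. In mice, Lpl in L-Sirt1 KO LNA29 replicate 1 was at 4301 normalized counts, against 2009 to 2261 in the other 3, and this library also had the most skeletal muscle RNA of any mouse library. Lipg in WT/Floxed LNA29 replicate 2 was at 1017, against 303 to 507 in the other 7.

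In rats, Lipa in vehicle replicate 3 was at 430 normalized counts, against 462 to 465 in the other vehicle libraries. The other 4 rest on few reads: Lipg was at 0.0864 (2 reads) in ZLR replicate 2 and 1.56 (1 read) in ZFR replicate 4, and Gpihbp1 was at 0.766 (20 reads) in ZLR replicate 1 and 0.224 (1 read) in vehicle replicate 2.

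The response of Apoc2 to LNA29 differed in direction between the WT and floxed mice of the pooled group, with every LNA29 library above every saline library in WT mice and below in floxed mice. Few libraries entered each background, and the share of all genes with such separated groups was not determined. The difference of the responses was −0.407 on the log2 scale and was not called (limma, adjusted p = 0.525).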

How the results depend on the processing

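The number of the 9 genes called in WT/Floxed mice was 1; it was 2 with sample quality weights, 0 in WT mice only, 0 in floxed mice only and 1 to 2 over single libraries left out. In L-Sirt1 KO mice it was 2; it was 3 with weights (Lpl in addition, 0.67, adjusted p = 0.197), 0 at adjusted p below 0.05, 0 without the 2 libraries richest in adipocyte and muscle RNA (added after the data were seen) and 1 to 2 with 1 library left out. Between ZFR and ZLR it was 2; it was 1 with no minimum mean (Apoc2 at adjusted p = 0.0566), 1 with TMM scaling (Apoc2 at 0.0671), 4 with weights (Lipc at 0.00622 and Lipa at 0.0481 in addition) and 1 to 2 with 1 library left out. Between genotypes it was 0, and 1 with weights (Apoc2, −0.50, adjusted p = 0.0648). With BT2 it was 0 under every alternative run. Lpl in WT/Floxed mice was called without each of the 13 libraries (0.72 to 0.87), and Apoa5 between ZFR and ZLR was called in all 16 alternatives set out at the start and in the added one. The causes of these changes were not tested.

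Replicate numbers did not pair the animals: deviations of libraries with the same number correlated by −0.28 to 0.24 over the 4 comparisons. With the replicate number as a block the genes called were 0 in WT/Floxed mice (Lpl 0.74, adjusted p = 0.245), 3 in L-Sirt1 KO mice (Lpl in addition, adjusted p = 0.183), 1 between ZFR and ZLR (Apoa5), 0 with BT2 and 0 between genotypes, and of all genes 56, 145, 221, 0 and 0. Few same-numbered libraries correlated best with each other.

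Of all genes, 688 were called in WT/Floxed mice (weights 1308, no minimum mean 396, WT mice only 88, adjusted p below 0.05 206, 1 library left out 381 to 1006), 297 in L-Sirt1 KO mice (804, 160, flow cell as a covariate 103, adjusted p below 0.05 37, without the adipocyte- and muscle-rich libraries 107, 1 library left out 77 to 426), 367 between ZFR and ZLR (1169, 241, criteria used for mice 707, without ZFR replicate 2 229, 1 library left out 225 to 379), 0 with BT2 (up to 2) and 7 between genotypes (weights 1220, flow cell 19, adjusted p below 0.05 0, 1 library left out 0 to 233). The background share in WT/Floxed mice was lowest without LNA29 replicate 8, in L-Sirt1 KO mice without LNA29 replicate 4, and between ZFR and ZLR without ZFR replicate 3.

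Differences that changed sign were all of genes that were not called. In WT/Floxed mice these were Apoc2 (0.033) and Apoa5 (−0.070) with weights, Lmf1 (−0.045), Apoc2 (0.14) and Apoc3 (0.031) in WT mice only, and Lipa (0.077) in floxed mice only. With 1 library left out the ranges were −0.073 to 0.0042 for Lipa, −0.016 to 0.040 for Lmf1, −0.084 to 0.049 for Apoc2 and −0.023 to 0.089 for Apoa5 in WT/Floxed mice, and −0.028 to 0.072 for Lipc in L-Sirt1 KO mice. Between ZFR and ZLR, Lmf1 was −0.18 with weights and −0.12 in libraries of at least 1000000 reads. With BT2, Apoc2 was −0.021 with weights, Apoc3 0.029 in libraries of at least 1000000 reads and Lipc 0.12 without the libraries richest in adipocyte or muscle RNA, with ranges of −0.11 to 0.026 for Lipc and −0.015 to 0.12 for Apoc2 when 1 library was left out. Between genotypes, Apoa5 was 0.024 with weights.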

Other observations

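Of 8 stellate cell markers 0 were called in either mouse comparison, and of 8 macrophage markers 2 fell in L-Sirt1 KO mice with LNA29, Vsig4 by 0.54 (adjusted p = 0.0891) and Clec4f by 0.29 (adjusted p = 0.189) on the log2 scale; both were named after their values were seen. Ahsg, a hepatocyte marker that encodes fetuin-A, rose with LNA29 by 0.93 in WT/Floxed (adjusted p = 0.000151) and by 0.83 in L-Sirt1 KO mice. In WT/Floxed mice 2 of 8 hepatocyte markers were called higher and 1 lower. Their sums overlapped there, at 7188367 to 9045102 normalized counts with LNA29 and 5159317 to 8200751 with saline. Summed hepatocyte markers did not overlap in L-Sirt1 KO mice, at 7279904 to 8205465 normalized counts with LNA29 and 5799996 to 7139264 with saline, and 1 of 8 was called. Pancreatic acinar markers, summed, were at 0.944 to 1070 normalized counts in WT/Floxed saline libraries (439 and 1070 in replicates 3 and 4) and at 0 to 213 in LNA29 libraries, with a median log2 difference of −1.67 and 0 of 6 called. Of the red blood cell markers 0 of 4 were called in WT/Floxed and 0 of 5 in L-Sirt1 KO mice. With BT2 none of the marker lists held a called gene.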
